A study of Mus musculus with 9 samples.

Results

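ATAC-seq cuts accessible chromatin with a transposase, so that a peak of fragments marks a place where chromatin is open. Untreated cells of C3H/10T1/2 (CCL-226), an established mouse line of mesenchymal progenitor cells (MPCs), were measured. 3 libraries came from *Atrx* wild-type (WT) cells, an isogenic control that received Cas9 with no guide, and 3 each came from the *Atrx* knockout (KO) lines B10 and G7. Each KO line is a single clone and was made with its own guide, so a difference that both clones share was seen in 2 clones only, against 1 control line. The labels do not say that the 3 libraries of a line were separate cultures, so every p-value measures only the spread between these libraries.

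The regions described here were open in every KO library and in none of the WT libraries. Peaks of all 9 libraries on chromosomes 1 to 19 were merged where they overlapped or touched, which gave 132893 regions. Of these, 1021 were called in each of the 6 KO libraries but in 0 of 3 WT libraries, or 0.768% of all merged regions. They are called KO-only regions below. Because the presence of peaks chose them, their difference from WT is a description and was not tested. A missing peak means that no peak was called and does not show closed chromatin.

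ATRX is a chromatin remodeller that works with DAXX to place the histone variant H3.3 at repeats, telomeres and other heterochromatin. Chromatin opens where transcription factors displace nucleosomes, at promoters and, more variably between cell types, at distal enhancers. MPCs can become fat, cartilage, bone or muscle cells, and each fate has its own factors, such as SOX9 in cartilage. AP-1 (dimers of FOS and JUN proteins) and TEAD factors (the partners of YAP and TAZ) bind many enhancers of mesenchymal cells.

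The sequences under the 8 strongest KO-only regions are shown first, because the strength, position and motifs described below can be read against them. They were chosen by their lowest rank over the 6 KO libraries. The peaks of each library were ordered by −log10 q, and the rank is the percentile in that order, with 100 the highest. Regions were not shown where the window printed touched an annotated UTR (as at *Emc9*), where the gene had a Gm name or where the summit sequence occurred elsewhere in the genome. Each line gives the forward strand of mm10 from 50 bases before to 50 bases after the median summit, read from the RefSeq copy of that assembly, GRCm38. Capitals mark exact matches, on either strand, to the motifs CAGGTG (E-box), GGAATGT (TEAD), TTGGCA (NFI half-site), AACAAAG (SOX), TGACTCA (AP-1) and GCCNNNGGC (AP-2). They are matches of letters and not sites of binding.
Peg13 in Trappc9, chr15:72810018-72810118: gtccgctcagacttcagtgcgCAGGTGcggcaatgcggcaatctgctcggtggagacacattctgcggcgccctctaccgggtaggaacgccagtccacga
Slc24a3 first exon, chr2:145168113-145168213: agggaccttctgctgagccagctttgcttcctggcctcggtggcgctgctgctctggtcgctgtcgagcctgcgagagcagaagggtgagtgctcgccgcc
LTO1, chr7:144918338-144918438: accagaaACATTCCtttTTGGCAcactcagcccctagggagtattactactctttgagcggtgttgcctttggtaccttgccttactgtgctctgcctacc
Fam19a2 intron, chr10:123420422-123420522: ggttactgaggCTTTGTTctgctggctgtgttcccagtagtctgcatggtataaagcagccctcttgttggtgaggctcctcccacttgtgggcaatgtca
Sorcs3 intron, chr19:48585149-48585249: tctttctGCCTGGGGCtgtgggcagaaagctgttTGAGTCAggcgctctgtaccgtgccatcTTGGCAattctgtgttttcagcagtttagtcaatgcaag
Gna14 intron, chr19:16366620-16366720: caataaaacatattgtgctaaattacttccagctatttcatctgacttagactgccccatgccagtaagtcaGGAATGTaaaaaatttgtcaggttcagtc
intron 38.8 kb from Sycp3 and 8.83 kb from Gnptab, chr10:88420196-88420296: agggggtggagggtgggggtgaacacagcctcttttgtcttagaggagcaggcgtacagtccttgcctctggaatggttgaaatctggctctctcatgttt
570 kb from Slco4c1, chr1:96301456-96301556: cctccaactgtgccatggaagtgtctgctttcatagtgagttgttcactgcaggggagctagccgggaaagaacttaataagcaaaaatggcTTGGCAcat

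The strongest KO-only region lay over the start of *Peg13*, an imprinted non-coding RNA gene inside *Trappc9* (chr15:72809076-72810733, 1658 bp). Its ranks were 86.7, 84.9 and 84.1 in B10 replicates 1 to 3 and 88.4, 87.2 and 86.3 in G7 replicates 1 to 3. The fold enrichment, the ratio of signal to background given by the peak caller, lay between 12.7 and 14.1 in the 6 libraries. All 6 peaks were thus among the strong peaks of their libraries, with ranks of the lines that overlapped, and the nearest WT peak was 7.30 kb away. The second strongest covered the start and first exon of *Slc24a3*, a sodium, potassium and calcium exchanger (chr2:145166961-145168690). It ranked at 89.8, 90.5 and 86.1 in B10 and at 87.3, 83.0 and 84.6 in G7, with a fold enrichment of 11.2 to 18.1. Its sequence was rich in G and C (74.6% of bases within 100 bp of the summit), and the lines overlapped in rank. The nearest WT peak was 4.46 kb away.

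The other regions with the highest ranks described here lay in introns, between genes and at 1 promoter, that of *LTO1*. In an intron of *Fam19a2*, which encodes a secreted chemokine-like protein of the nervous system, a region of 685 bp ranked from 70.0 to 75.5 in the 6 libraries. Its 6 summits lay within 3 bp of each other, its fold enrichment was 16.4 to 17.8, and the window held the SOX motif AACAAAG. The region in an intron of *Sorcs3*, a sorting receptor of neurons, ranked at 91.7, 91.1 and 85.4 in B10 and at 73.0, 69.9 and 70.1 in G7. Every B10 library was above every G7 library there, and the 100 bp on each side of its summit held both AP-1 and SOX motifs. The region in an intron of *Gna14*, a G protein alpha subunit, ranked from 68.2 to 74.3, and its 6 summits lay within 1 bp. At *LTO1*, a gene for ribosome biogenesis, the ranks were 85.6, 80.4 and 72.9 in B10 and 94.7, 84.5 and 78.7 in G7. The fold enrichment at *LTO1* was only 4.39 to 7.998 for these ranks, lower than at the other regions described so far. The 15 strongest regions also held the one 570 kb from *Slco4c1* and 1.335 kb from a predicted miRNA gene, with ranks of 65.7 to 80.6, one in an intron 38.8 kb from the nearest protein-coding transcript start, that of *Sycp3*, and 8.83 kb from the start of another transcript, of *Gnptab*, with 65.7 to 77.9, and one in an intron of *Atp10a*, a phospholipid flippase, 2.66 kb from its start, with 64.0 to 74.9.

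Most KO-only regions were weaker than these examples. The median rank of their peaks was 43.9, 40.7 and 35.6 in B10 replicates 1 to 3 and 34.2, 29.6 and 26.3 in G7 replicates 1 to 3. Regions with a peak in 9 of 9 libraries had medians between 68.5 and 72.1 in the same 6 libraries. The lowest rank of a region over the 6 KO libraries ran from 0.173 to 84.1 with a median of 16.8, was 50 or more in 57 regions and under 5 in 140. The plot of ranks by library shows how far the weaker peaks reach down.

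**Figure D1:**
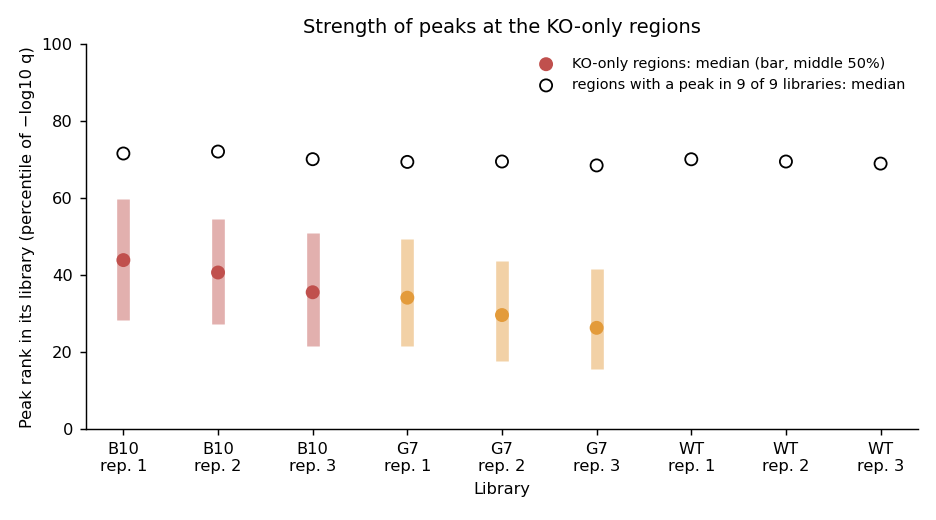
Peak rank (percentile of −log10 q within the library, vertical axis) in each of the 9 libraries (horizontal axis). Filled points are medians over the 1021 KO-only regions and bars span the middle 50%, while open circles are medians over regions with a peak in 9 of 9 libraries. KO-only medians fall from 43.9 in B10 replicate 1 to 26.3 in G7 replicate 3, and the open circles lie between 68.5 and 72.1. WT libraries have no filled point because the choice of regions leaves them without a peak.

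The regions just outside the choice were also weak or differed by a single peak. A peak in 5 of 6 KO libraries and 0 of 3 WT libraries was found in 1136 regions, with a median lowest rank of 8.74 among the KO libraries that held a peak and a median mean rank of 24.5. A peak in 6 of 6 KO and 1 of 3 WT libraries was found in 1815 regions, with a median lowest rank of 16.8 and a median mean rank of 36.9, against 34.6 for the KO-only regions. In those 1815 regions the WT peak had a median rank of 22.4. The opposite pattern, a peak in 3 of 3 WT and 0 of 6 KO libraries, was found in 1548 regions, which are called WT-only regions below.

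Within a KO-only region the 6 libraries mostly marked the same place. At least 1 base was shared by all 6 libraries in 983 regions (96.3%), with a median of 238 bp shared in a median width of 656 bp. Summits spread over a median of 95 bp, and over 100 bp or less in 52.4% of the regions. In 9 of 9 regions, the same 6 libraries spread over a median of 62 bp. The *Cnmd* region described below is an exception, with summits 1653 bp apart and no base common to all 6 libraries. WT peaks were often close by, with 45 regions (4.41%) within 500 bp of one and 635 (62.2%) within 10 kb, and the median gap was 6451 bp.

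To ask whether this pattern is found in libraries that did not choose the regions, the choice was repeated without 1 replicate number of each line. From replicates 1 and 3, 1745 regions had a peak in 4 of 4 KO and 0 of 2 WT libraries. Of these, 91.8% (95% Wilson interval 90.4 to 93.0) held a peak in B10 replicate 2 and 80.3% (78.4 to 82.1) in G7 replicate 2, but 19.7% (17.9 to 21.6) in WT replicate 2. Over all regions, these libraries held a peak in 64.7%, 59.3% and 59.4%. From replicates 1 and 2, 1922 regions were chosen, and 82.6% held a peak in B10 replicate 3, 74.7% in G7 replicate 3 and 15.6% in WT replicate 3. The KO shares were thus above and the WT shares below those of all regions.

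WT replicate 1 differed from the other WT libraries in this respect. Of 2940 regions chosen on replicates 2 and 3, 87.3% held a peak in B10 replicate 1, 86.3% in G7 replicate 1 and 47.8% (46.0 to 49.6) in WT replicate 1, where all regions reached 62.1%. The reverse choice, 0 of 4 KO and 2 of 2 WT libraries, gave 52.8% in WT replicate 1 against 77.8% and 73.9% in WT replicates 2 and 3. The number of KO-only regions therefore depended on this library, with 2324 when WT replicate 1 was left out of the choice, against 1299 and 1255 without WT replicate 2 or 3. In peak rank at shared regions, replicate 1 libraries deviated against replicates 2 and 3 of the other lines (r from -0.562 to -0.357). The part of that in these shares was not tested. All intervals cover counting error only, and with 1 library per line left out no test between lines was possible.

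**Figure D2:**
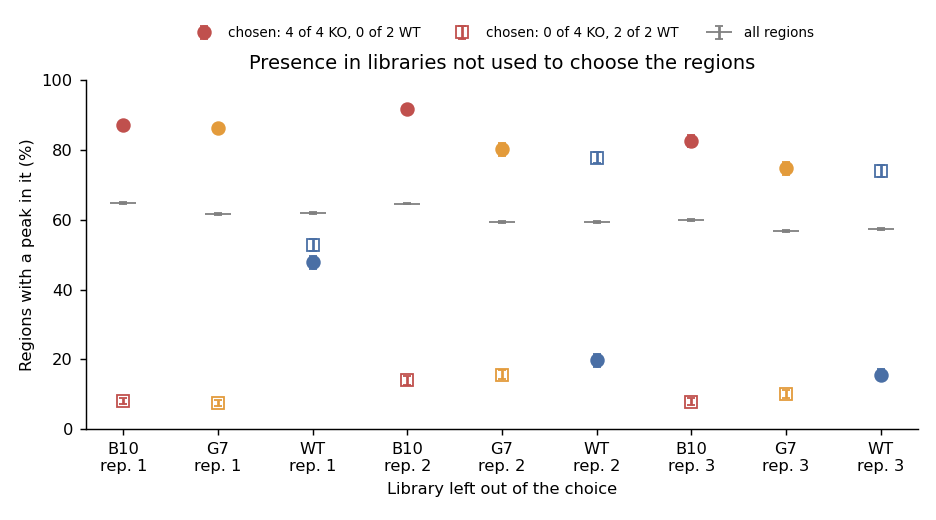
Share of regions (percent, vertical axis) with a peak in the library named on the horizontal axis, where regions were chosen on the other 2 replicate numbers of all lines. Filled circles are regions chosen for 4 of 4 KO and 0 of 2 WT libraries, open squares the reverse choice and grey dashes all regions, with 95% Wilson intervals (counting error only) and red for B10, orange for G7 and blue for WT. Filled circles lie from 74.7 to 91.8 in the KO libraries and at 47.8, 19.7 and 15.6 in WT replicates 1, 2 and 3.

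The clones were also held out in turn, with the same WT libraries in each choice. Of 4721 regions with a peak in 3 of 3 B10 and 0 of 3 WT libraries, 47.2%, 37.5% and 34.7% held a peak in G7 replicates 1 to 3. Regions with a peak in 1 of 3 B10 and 0 of 3 WT libraries did so in 15.01%, 10.02% and 8.31%. The reverse choice, 0 of 3 B10 and 3 of 3 WT libraries, gave 26.3%, 34.3% and 31.5%, close to the first set in G7 replicates 2 and 3. Of 2096 regions with a peak in 3 of 3 G7 and 0 of 3 WT libraries, 64.6%, 69.8% and 63.1% held a peak in B10 replicates 1 to 3. Regions with 1 of 3 G7 libraries did so in 29.4%, 23.0% and 17.8%, and the reverse choice, 0 of 3 G7 and 3 of 3 WT libraries, gave 28.6%, 34.0% and 29.1%. Over all regions, a peak was present in 56.7% to 58.6% in the G7 libraries and 62.5% to 65.9% in the B10 libraries.

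KO-only regions were stronger in B10 than in G7 in each matched pair of libraries. Their mean rank was 40.7 ± 3.64 in B10 and 32.2 ± 3.09 in G7 (SD, n = 3 libraries each). The difference of 8.42 had an exact two-sided permutation p = 0.1, the smallest that 3 against 3 libraries allow (adjusted p = 0.15 over 3 such tests). Mean log2 fold enrichment was 2.75 ± 0.04 in B10 and 2.53 ± 0.08 in G7, a difference of 0.22 (exact permutation p = 0.1, adjusted p = 0.15). Mean peak width was 501.8 ± 10.6 bp and 481 ± 14.4 bp (exact permutation p = 0.2, adjusted p = 0.2). With libraries paired by replicate number, an exact sign permutation gave p = 0.25 for each of the 3 measures, the smallest that 3 pairs allow. None of these tests can pass a threshold of 0.05. At regions open in 9 of 9 libraries the same comparison gave a difference in mean rank of 1.82 and in log2 fold enrichment of 0.08, and peaks were narrower in B10 by 39.7 bp. The B10 libraries also held more peaks in all (79489 to 86650, against 74643 to 77706 in G7), and the part of that in the difference was not tested beyond an equal number of peaks per library, which left differences of 4.54 in mean rank, 0.25 in log2 fold enrichment and 29.5 bp in width.

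Single regions differed in which clone was stronger. The mean rank was higher in B10 in 737 of 1021 regions (72.2%), every B10 library exceeded every G7 library in 292, and the reverse held in 76. The starts of *En1*, a homeobox factor of brain and limb patterning, and *Tpd52l1* were of the latter kind. *En1* (chr1:120601969-120602949) ranked at 70.4, 71.3 and 62.1 in B10 and at 81.7, 79.8 and 82.6 in G7. *Tpd52l1* (chr10:31445383-31446260) ranked at 66.8, 64.0 and 66.2 in B10 and at 82.2, 78.3 and 79.5 in G7, and a WT peak lay 0.302 kb away. Across regions, Spearman's rho between the mean ranks in B10 and in G7 was 0.55 over 1021 KO-only regions and 0.93 over 46449 regions of 9 of 9 libraries. The rho is given as a description, because regions share libraries and are not independent.

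Introns held more KO-only regions than any other class of position. Of 1021 regions, 501 (49.1%, 95% Wilson interval 46.0 to 52.1) had their summit in an intron, 321 (31.4%) were intergenic, 34 (3.33%) exonic and 66 (6.46%) at the start of another transcript. A total of 99 (9.70%, 8.03 to 11.7) lay within 1 kb of a protein-coding start. All merged regions had 11.2% at such starts and 42.6% in introns, the 9 of 9 regions 24.2% and 35.1%, and the WT-only regions 9.04% and 37.1%. The share at promoters was thus below that of 9 of 9 regions and near that of WT-only regions. The median distance to a protein-coding start was 34.6 kb, against 22.8 kb over all regions and 14.3 kb over 9 of 9 regions. At 100 kb or more lay 27.7% of KO-only regions, 17.98% of all regions and 19.4% of WT-only regions.

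Among the 99 promoters, the strongest after those of *Slc24a3* and *LTO1* belonged to *Emc9*, *Slc35g1* and *Fam189b*, with the predicted gene *Gm2237* between them. *Emc9*, a subunit of a complex that inserts proteins into the endoplasmic reticulum membrane, ranked at 79.7, 75.8 and 68.5 in B10 and at 76.8, 74.2 and 74.3 in G7. *Slc35g1*, a solute carrier, ranked at 82.4, 83.4 and 82.7 in B10 and at 65.6, 71.2 and 68.1 in G7, with no overlap of the lines. *Fam189b* ranked from 64.3 to 80.8. *Gm2237* (74.2 to 81.3) and *Gm3636* (79.4 to 84.8) lie on chromosome 14 among predicted genes that may have close copies, so where these reads came from is uncertain, although the 31 bases at each summit occur once in the assembly.

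Promoters of developmental and signalling genes were among the named regions. *Sall1*, a zinc finger factor of kidney and limb development, had a region of 2397 bp over its start with ranks of 65.1, 66.3 and 64.0 in B10 and 59.4, 55.5 and 58.9 in G7. *Grb10*, an imprinted adaptor that restrains growth factor signalling, ranked at 71.1, 63.8 and 59.4 in B10 and at 64.4, 58.9 and 54.7 in G7. *Plce1*, a phospholipase C, ranked at 60.5, 73.0 and 67.2 in B10 and at 60.1, 58.9 and 56.5 in G7. All 3 windows held runs of G in the pattern of a G-quadruplex, a structure that ATRX is known to act on. That pattern was found in 4.31% of KO-only regions (3.23 to 5.74), 4.27% of all regions, 7.04% of 9 of 9 regions and 5.49% of WT-only regions, so it was no more common over KO-only regions than over all regions. The predicted gene *Gm11627* completed the 12 strongest promoters, with ranks of 58.3 to 72.0 and a fold enrichment of 4.46 to 6.06.

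The nearest genes were many, and a few had several regions each. The 1021 regions were nearest to 820 protein-coding genes, of which 686 had 1 region and 13 had 4 or more, together holding 73 regions. These 13 genes were *Slc16a7* with 16, *Fam19a2* with 8, *Csmd3* with 6, *Sox9*, *Intu* and *Grm7* with 5, and *Sorcs3*, *Mast4*, *Thsd7a*, *Zfhx3*, *Foxp1*, *Ror1* and *Dclk2* with 4. These genes also differ in how many merged regions they have, from 24 at *Sorcs3* to 176 at *Sox9*. As a share of all merged regions nearest to the gene, KO-only regions made up 25.4% at *Slc16a7*, 18.6% at *Fam19a2*, 16.7% at *Sorcs3*, 14.8% at *Ror1* and 12.5% at both *Intu* and *Thsd7a*, but 2.84% at *Sox9*. None of the 13 genes had a WT-only region, while WT-only regions made up 1.16% of all merged regions. The genes were picked for their KO-only regions, so this is a description.

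*Slc16a7*, which encodes the monocarboxylate transporter MCT2 for pyruvate and lactate, stood at the centre of the densest run. Between chr10:125114268 and chr10:125538946, a span of 425 kb, 15 of 33 merged regions were KO-only, and none was open in 9 of 9 libraries. The 3 B10 libraries held 24, 24 and 23 peaks there, the 3 G7 libraries 25, 20 and 25, and each WT library 0. This span lay in a stretch of 616 kb without any WT peak, which held 42 merged regions and 23 to 30 peaks in each KO library. By length, that stretch was number 400 among 7627 stretches over 50 kb without a WT peak, and of all of them it held the most KO-only regions. Within 1000 kb either side of the 5′ end of *Slc16a7*, 27 of 120 regions held a WT peak, and 12 were open in 9 of 9 libraries. The cause of the missing WT peaks was not tested.

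The regions at *Slc16a7* ranged widely in rank, and the clones overlapped at some and not at others. The strongest (chr10:125466688-125467989, intergenic, 77.2 kb from the start) ranked at 71.0, 70.4 and 73.8 in B10 and at 72.3, 65.2 and 61.9 in G7. A region 111 kb from the start (chr10:125197699-125198018) held the AP-1 motif and ranked at 72.3, 72.6 and 73.0 in B10 and at 61.8, 68.9 and 61.7 in G7. Every B10 library was above every G7 library there, as also at chr10:125490063-125491002, with 71.0, 58.1 and 38.8 in B10 and 31.6, 28.6 and 24.1 in G7. The lowest rank over the 6 libraries ran from 8.67 to 61.9 over the 16 regions. The weakest lay in an intron 5.93 kb from a start, with ranks of 32.5, 20.01 and 11.9 in B10 and 35.9, 8.67 and 11.5 in G7.

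**Figure D3:**
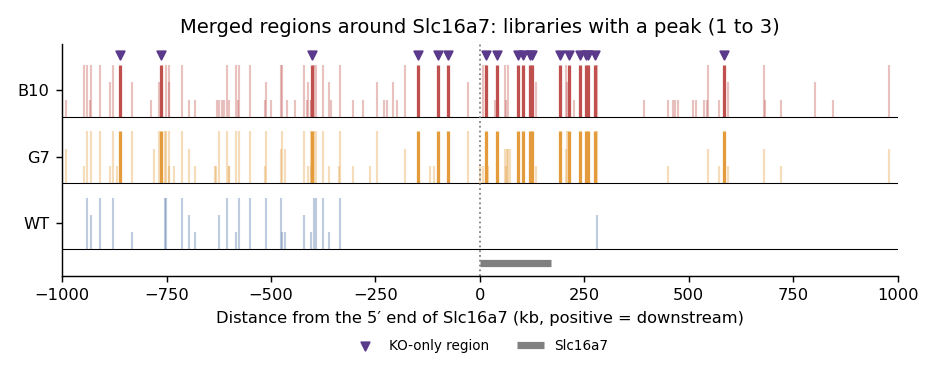
Merged regions within 1000 kb of the 5′ end of *Slc16a7*, by distance in the direction of transcription (horizontal axis, kb). Each line of the 3 tracks is a region and its height is the number of libraries with a peak, from 1 to 3, in B10, G7 and WT, with KO-only regions in full colour and marked by triangles. Over and around the gene, drawn as a grey bar, both KO tracks hold peaks in the 616 kb where the WT track is empty.

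A second run on the same chromosome lay in *Fam19a2*, where 5 of 12 regions in 180.5 kb were KO-only. B10 libraries held 11, 7 and 5 peaks in that span and G7 libraries 7, 6 and 5, and WT libraries 0. It was part of a WT-free stretch of 789 kb with 7 KO-only regions. At *Sorcs3*, 3 regions lay in a stretch of 367 kb, and at *Tenm3*, a teneurin of synapse formation, 3 lay in one of 620 kb. In all, 367 of 1021 KO-only regions (35.9%, 95% Wilson interval 33.1 to 38.9) lay in stretches of over 50 kb without a WT peak. Of the other 33655 merged regions without a WT peak, 30.4% (30.0 to 30.9) lay in such stretches, and of regions with a peak in 5 of 6 KO and 0 of 3 WT libraries 30.5% (27.9 to 33.2) did.

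The regions of *Thsd7a*, *Mast4*, *Zfhx3*, *Csmd3* and *Grm7* lay mostly in introns, with others between genes or over a start. *Thsd7a*, which encodes a membrane protein with thrombospondin repeats, had its strongest at chr6:12713850-12714634, with ranks of 81.4, 78.3 and 81.4 in B10 and 51.3, 45.3 and 55.8 in G7 and the SOX motif AACAATG within 100 bp of the summit. Fold enrichment there was 17.5 to 20.3 in B10 and 9.34 to 12.6 in G7, with no overlap of the clones. *Mast4*, a microtubule-associated kinase, had its strongest between genes, 205 kb from the start (chr13:103539325-103540451), with ranks from 54.3 to 71.2. *Zfhx3*, a zinc finger homeobox factor, had its strongest at chr8:108649055-108649422, with ranks from 49.5 to 62.4. The regions of *Csmd3* and *Grm7* were weaker, with a lowest rank over the 6 libraries of 1.53 to 32.6 and 3.45 to 28.6. One of the 6 at *Csmd3* covered its start, with ranks of 8.05 to 20.1 and a fold enrichment of 2.76 to 3.04.

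The other runs held WT peaks. A run was taken as KO-only regions no more than 250 kb apart, and 7 runs held 5 or more regions, 48 in all, while 609 regions were alone. In the run upstream of *Intu*, a planar cell polarity factor of cilia, 5 of 12 regions were KO-only and 4 held a WT peak. The mean rank of the 3 shared regions there was 53.6, 57.7 and 52.0 in B10, 65.0, 65.1 and 65.5 in G7 and 24.9, 31.2 and 17.8 in WT. In the run at *Ror1*, a receptor of the Wnt ligand WNT5A, 6 of 27 regions were KO-only, and the 3 shared regions had mean ranks of 43.9 to 51.4 in WT, 67.7 to 71.7 in G7 and 75.02 to 79.4 in B10. In both runs every KO library was thus above every WT library at the shared regions. That is a description, since the runs were picked by their KO-only regions and the contrast is the same as in the choice. The runs that reach *Mgll*, *Nrep* and *Aldh5a1* had 6 of 28, 6 of 39 and 5 of 57 KO-only regions. The mean ranks of shared regions were 60.8 to 74.5 in KO and 43.5 to 53.3 in WT libraries in the *Mgll* run (4 regions), and 67.4 to 74.5 and 55.1 to 64.8 in the *Nrep* run (9 regions), again with no overlap. In the *Aldh5a1* run, with 16 shared regions, they overlapped, at 63.3 to 68.7 in KO and 55.9, 65.5 and 65.1 in WT libraries.

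Shared regions near KO-only regions were compared over the genome in the same way. In 3173 regions of 9 of 9 libraries within 50 kb of a KO-only region, the mean rank was 68.7 over the B10 libraries, 66.5 over the G7 libraries and 63.7 over the WT libraries. Over all 46449 such regions it was 68.1, 66.3 and 66.2. All 3 WT libraries were lower near KO-only regions (63.1 to 64.3) than over the genome (65.6 to 66.9), while the KO libraries moved by less than 1. The difference is given as a description, since it is in the same contrast as the choice.

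KO-only regions were unevenly spread over chromosomes. Their share of merged regions was highest on chromosome 10 (111 regions, 1.38%, 95% Wilson interval 1.15 to 1.66), 8 (84, 1.304%), 13 (79, 1.28%) and 6 (93, 1.203%). It was lowest on chromosome 5 (26, 0.367%, 0.251 to 0.537) and 2 (46, 0.442%). On some of these chromosomes the shared regions differed from WT in rank as well. On chromosome 6 their median rank difference from WT was 5.66 in B10 and 1.43 in G7. The B10 and G7 values were 4.90 and 0.81 for chromosome 13 and 3.85 and 4.15 for chromosome 8. For chromosome 5 they were -2.33 and -2.64, and for chromosome 2 they were -0.26 and -3.93. Chromosome 10, with the highest share, had values of 0.50 and 0.30. Chromosome 3, with a share of 1.04%, had 0.22 and 0.03, and chromosome 17, with 0.513%, had 2.06 and -0.67. Whether whole-chromosome differences between the lines bear on the KO-only regions was not tested.

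**Figure D4:**
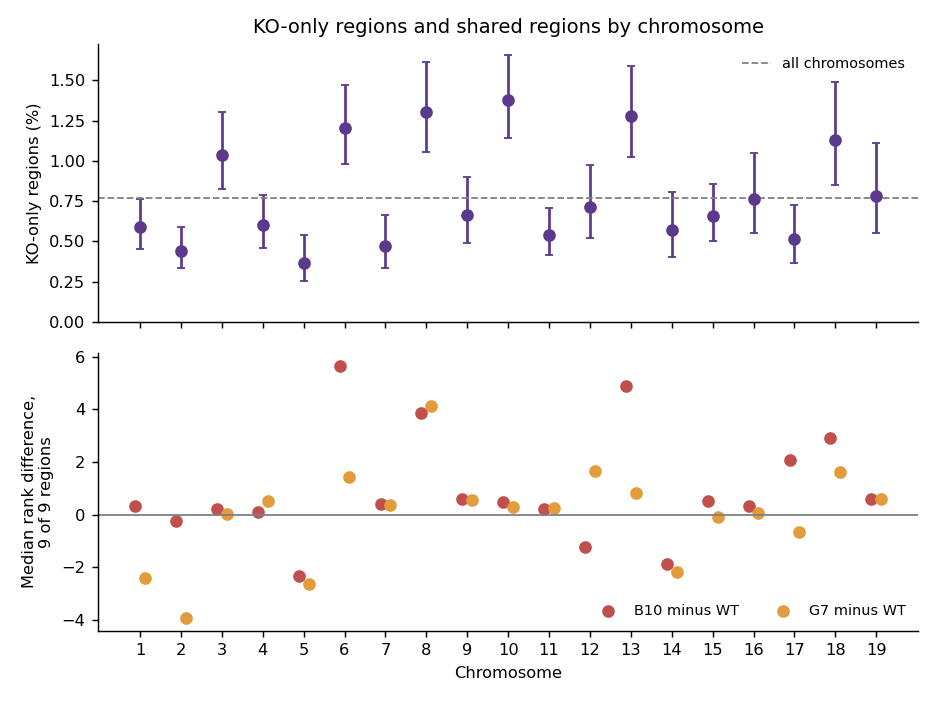
Top, share of merged regions that are KO-only (percent, vertical axis) on chromosomes 1 to 19 with 95% Wilson intervals (counting error only), and the share over all chromosomes as a dashed line at 0.768. Bottom, median difference in rank from WT of regions open in 9 of 9 libraries, for B10 and G7. Chromosomes 6, 8 and 13 are high in the top panel and have B10 differences of 3.85 to 5.66, while chromosome 10 is highest at 1.38 with differences of 0.50 and 0.30.

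Gene lists of mesenchymal fates were then examined, each region being given to its nearest protein-coding start. Cartilage genes had 15 KO-only regions among 700 merged regions (2.14%, 95% Wilson interval 1.303 to 3.51) and 3 WT-only regions, beside 0.768% over all merged regions. These 15 regions fell to 9 of 24 genes, with 5 at *Sox9*, the master factor of cartilage, 2 at *Sox6*, 2 at *Hapln1* and 1 each at *Sox5*, *Trps1*, *Col9a1*, *Col11a1*, *Ucma* and *Cnmd*. Adipocyte genes had 2 of 323, both in *Ebf1*, and no region was given to *Pparg*. Bone genes had 0 of 224, which allows up to 1.69%. Muscle genes had 1 of 166, which lay 88.7 kb from the nearest start of *Mef2c* and outside that gene. The lists were made with earlier results of these data known, and the counts carry no test.

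The cartilage regions differed in strength and in clone. The region nearest to *Ucma*, which encodes a matrix protein of cartilage, lay 17.1 kb from its start and ranked at 69.7, 68.6 and 52.5 in B10 and at 77.8, 57.6 and 46.0 in G7. The region nearest to *Cnmd*, the gene of chondromodulin, covered the start of a lincRNA 40.0 kb away and ranked at 48.8, 42.6 and 52.0 in B10 and at 93.7, 87.2 and 87.9 in G7. Every G7 library was thus far above every B10 library at *Cnmd*, and their summits were apart. The 5 regions at *Sox9* were all distal, 373 to 664 kb from the start, and were weak, with a lowest rank of 2.20 to 22.6. The strongest of them (chr11:112324694-112325108) ranked at 43.4, 41.4 and 22.6 in B10 and at 44.9, 48.4 and 36.6 in G7.

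Of the signalling and patterning lists, Wnt genes and limb regulators had shares near that of cartilage genes, and TGF-beta and BMP genes a lower one. Wnt genes had 14 of 649 regions (2.16%, 1.29 to 3.59), 4 of them at *Ror1*, 2 each at *Sfrp1* and *Tcf7l2*, and 1 each at *Fzd1*, *Fzd7*, *Fzd8*, *Lrp6*, *Rspo2* and *Tcf7l1*. The region at *Tcf7l1*, a repressive TCF factor, ranked at 63.9, 65.1 and 65.6 in B10 and at 42.6, 44.3 and 48.2 in G7. The region at *Fzd7*, a Wnt receptor, lay in an exon 1200 bp from the start, ranked from 39.7 to 56.7 and had a fold enrichment of only 2.63 to 3.37. Limb and homeobox regulators had 15 of 765 (1.96%, 1.19 to 3.21), among them 4 at *Zfhx3* and 2 each at *Meis2* and *Lhx8*. TGF-beta and BMP genes had 5 of 643 (0.778%), at *Acvr2a*, *Grem1*, *Inhba* and *Smad7*, a share close to that of all regions.

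Genes of neural adhesion and guidance were examined because many long genes carried KO-only regions. The choice of these lists thus rested on the same data, and their shares are a description only. Over all merged regions, 0.768% were KO-only and 1.16% WT-only. Synaptic adhesion genes had 22 of 1219 regions (1.805%, 1.19 to 2.72) and 10 WT-only regions (0.820%). Of the 22, 6 were at *Csmd3* and 3 each at *Tenm3*, *Cdh13*, *Lrrtm3* and *Opcml*. The strongest at *Tenm3* (chr8:48704379-48705056) ranked at 87.9, 85.2 and 70.8 in B10 and at 83.8, 62.7 and 59.2 in G7. Axon guidance genes had 6 of 875 (0.686%) and 13 WT-only regions (1.49%). One of the 6 covered the start of *Sema3e*, a secreted semaphorin, with ranks of 55.5, 61.9 and 61.1 in B10 and 44.8, 61.1 and 48.0 in G7. The neural marker list fixed for the cells had 2 of 6 promoters with a peak in each KO library and 3 of 6 in each WT library.

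Imprinted genes had 6 of 251 regions (2.39%, 1.10 to 5.12) and 8 WT-only regions (3.19%), with 24 of 30 genes in the annotation used. Beside *Peg13* and *Grb10*, 2 regions each were nearest to *Snrpn* and *Ndn*. They were distant, 490 and 952 kb from the start of *Snrpn* and 406 and 800 kb from that of *Ndn*, and outside both genes. The strongest nearest to *Snrpn* lay 952 kb from its start and ranked at 74.5, 76.4 and 79.6 in B10 and at 49.0, 39.4 and 43.9 in G7. SOX factor genes had 9 of 477 (1.89%), all but 1 at *Sox9*, *Sox5* and *Sox6*, which the cartilage list also holds. AP-1 genes had 0 of 159, which allows up to 2.36%, and genes of ATRX partners and heterochromatin factors had 0 of 69, which allows up to 5.27%.

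Motifs near the summits were examined next, by counting exact matches in the 100 bp on each side, with both strands read. The SOX motif AACAATG was found in 80 of 1021 KO-only regions (7.84%, 95% Wilson interval 6.34 to 9.65), in 4.05% of all merged regions, in 3.46% of 9 of 9 regions and in 2.00% of WT-only regions. The form AACAAAG was found in 79 regions (7.74%, 6.25 to 9.54), against 5.83%, 5.09% and 4.01%. It shares letters with the TCF and LEF motif CTTTGAT, which was found in 2.55% of KO-only and 2.17% of all regions. The TEAD motif GGAATGT was found in 95 regions (9.30%, 7.67 to 11.2), against 5.38%, 5.42% and 4.01%. The SOX and TEAD shares of KO-only regions were thus above those of all 3 other sets, and their intervals did not overlap.

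Several other motifs were less frequent in KO-only regions than over all regions. The AP-1 motif TGACTCA was found in 112 regions (10.97%, 9.20 to 13.0), in 16.5% of all regions, in 18.5% of 9 of 9 regions and in 24.7% of WT-only regions. The E-box CAGCTG was found in 10.7%, against 14.7% of all regions, and the core of the CTCF motif in 4.41% against 8.03%. CAGGTG, the E-box form marked in the sequences above, was in 6.46% (5.11 to 8.14), against 8.72% of all regions (8.57 to 8.88). In WT-only regions CAGGTG was in 6.78% (5.63 to 8.15). ETS sites (CCGGAAG) were found in 0.98%, against 2.37% of all regions and 4.85% of 9 of 9 regions. Without regions at promoters, 856 KO-only regions remained. SOX (AACAATG) was then in 8.76% against 4.42% of all regions, TEAD in 9.93% against 5.75% and AP-1 in 12.03% against 17.98%. ETS was in 0.82% against 1.09%, so of these motifs only ETS lost its clear gap. The EBF motif was in 2 regions (0.196%, 0.0537 to 0.711), against 0.865% of all regions and 0.913% of 9 of 9 regions. Without promoters, EBF was in 0.234% (0.0641 to 0.848) against 0.882% of all regions (0.829 to 0.939), with intervals that overlapped. C/EBP sites (TTGCNNAA) were more frequent, in 11.3% (9.47 to 13.3) against 9.17% of all regions (9.02 to 9.33), with intervals that did not overlap. The interval of WT-only regions (8.33%, 7.06 to 9.82) overlapped that of KO-only regions. Without promoters, C/EBP was in 11.8% (9.81 to 14.1) against 9.72% of all regions (9.55 to 9.90), and these intervals overlapped. The shares of KO-only regions and of all regions were 18.8% and 16.7% for the NFI half-site, 15.5% and 13.4% for the nuclear receptor half-site AGGTCA, 8.23% and 6.93% for STAT (TTCNNNGAA), 9.99% and 8.75% for RUNX (TGTGGTT) and 5.39% and 5.01% for the A tract AAAAAAAA. All 5 intervals overlapped those of all regions.

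**Figure D5:**
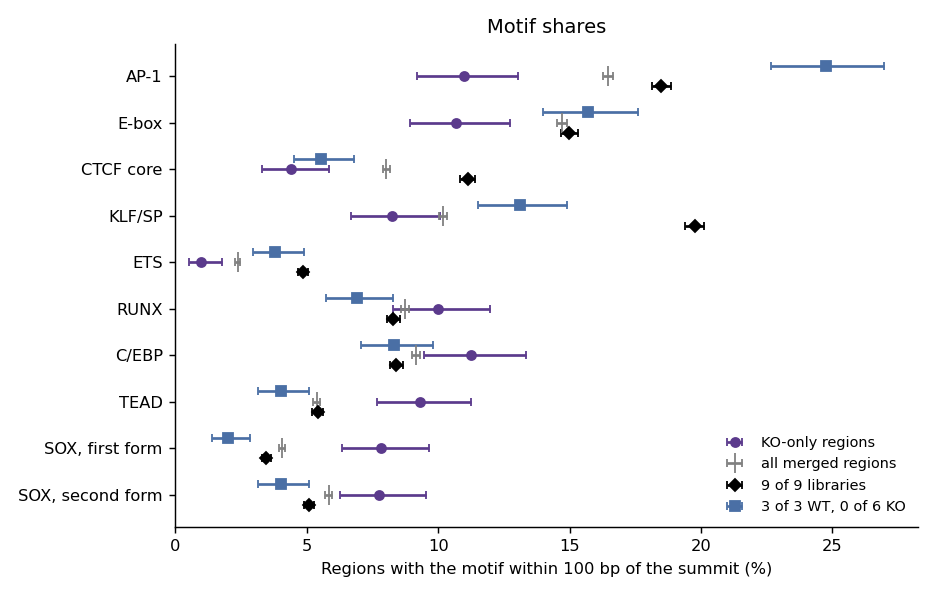
Share of regions (percent, horizontal axis) with an exact motif match within 100 bp of the summit, for 10 motifs (vertical axis), with 95% Wilson intervals (counting error only). Purple circles are the 1021 KO-only regions, grey marks all merged regions, black diamonds regions open in 9 of 9 libraries and blue squares the 1548 WT-only regions. The E-box shown is the form CAGCTG. KO-only regions lie right of the other sets for SOX (7.84 for AACAATG and 7.74 for AACAAAG) and TEAD (9.30), and left of them for AP-1 (10.97) and ETS (0.98).

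KO-only regions were lower in G and C than the other sets of regions. The median GC content within 100 bp of the summit was 46.8%, against 48.8% over all merged regions, 51.7% over 9 of 9 regions and 50.7% over WT-only regions. A ratio of observed to expected CpG above 0.6 was found in 8.13%, against 8.85% of all and 21.3% of 9 of 9 regions. Repeats covered at least 50% of the window in 63 KO-only regions (6.17%), against 6.06% of all regions, 2.57% of 9 of 9 regions and 4.72% of WT-only regions. The 31 bases at the summit occurred more than once in the assembly in 30 KO-only regions (2.94%), against 2.33% of all regions. This counts exact copies only and does not show how many peaks lay in repeats. Lists of defining genes for the cell type showed that 12 of 14 mesenchymal promoters held a peak in each of the 9 libraries, with *Thy1* and *Nt5e* as the exceptions, and blood, epithelial and endothelial lists had 0 to 4 of 6.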

How the data were processed

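Omni-ATAC-seq peaks were analysed in 9 libraries of C3H/10T1/2 cells, 3 each of WT, B10 and G7, grouped and numbered by their labels. The authors aligned paired-end reads to mm10 with Rsubread and called peaks in each replicate with MACS2 in BAMPE mode (version not given in the sources used here). Peak names mention an input, while the methods describe none. The deposited lists give coordinates and summits, a display score (not used), the fold enrichment as a ratio and −log10 p- and q-values made by the authors. Only peaks with a q-value under 0.05 are listed. Depth cannot be read from peak lists.

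Peaks on chromosomes 1 to 19 were merged, from 74643 to 86650 per library, and annotated with GENCODE M21. A region within 1 kb of a start was a promoter, and any other was placed by its median summit. No sequence of chromosome 18 was printed. Python 3.11.15, numpy 2.4.6, pandas 2.3.3 and scipy 1.17.1 were used. Shares carry 95% Wilson intervals for counting error, and regions do not stand for replicates. Means over libraries were tested between B10 and G7 by exact two-sided permutation, adjusted by the Benjamini-Hochberg method, and the code was checked on simulated data. Members and lists were chosen with earlier results of these data known. Named were the 15 regions with the highest lowest rank, the 12 strongest promoters, the 10 genes with the most regions (ties by the summed lowest rank) and up to 3 regions per list. Libraries with the same replicate number deviated together in peak rank at shared regions (r from 0.315 to 0.665, against -0.562 to 0.312 for different numbers), so the numbers were taken to pair libraries. Among different numbers, r was -0.562 to -0.357 between replicate 1 and the others and 0.211 to 0.312 between replicates 2 and 3. Alternatives were an equal number of peaks per library, stricter peaks, other distances and windows, the replicate block and each library left out. Values for 1 gene of the lists are not reported here.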

Additional observations from a re-analysis of the deposited data

Results flagged for a closer look

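Chromosome X was not used for the comparisons above. On it, 33 of 2908 merged regions were called in each of the 6 KO libraries but in 0 of 3 WT libraries (1.13%, 95% Wilson interval 0.809 to 1.59, counting error only), a signal outside the chromosomes compared, and 38 held the reverse pattern. The strongest covered the start of *Rnf128*, a ubiquitin ligase gene, with ranks of 62.5 to 72.3 over the 6 KO libraries. Of the 33, 5 were nearest to *Hs6st2*, a heparan sulfate sulfotransferase gene, and 3 to *Mbnl3*, a splicing factor gene next to it. *Asmt* was nearest to as many regions as *Mbnl3*. The region over the start of *Hs6st2* ranked from 60.6 to 77.4. *Atrx* itself lies on this chromosome and was not the nearest gene of any of the 33 regions.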

How the results depend on the processing

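The number of KO-only regions was 1021 and stayed within 1.5 times under the 5 other rules tried on peaks, from 684 with a −log10 q of at least 5 to 1054 with chromosomes X and Y, and 852 overlapped those found with equal peaks per library. Leaving out 1 library gave 1087 to 2324, the highest without WT replicate 1. Leaving replicate 1, 2 or 3 out of every line gave 2940, 1745 and 1922. Fewer libraries had to match in each of these settings, and the cause of the differences between them was not tested. With the replicate block, the B10 minus G7 differences of 8.42 in mean rank, 0.22 in mean log2 fold enrichment and 20.5 bp in width each had a p of 0.25 (exact sign permutation of 3 pairs, the smallest possible). They ranged from 6.79 to 10.4, 0.20 to 0.26 and 12.4 to 26.3 bp when a library was left out, with no change of sign. A promoter distance of 3 kb gave 13.7% of KO-only regions, against 16.1% of all merged regions. Windows of 250 bp either side gave 15.2% for AP-1, 14.3% for SOX (AACAATG) and 18.02% for AACAAAG, since larger windows hold more matches. Over all merged regions those windows gave 21.8%, 8.83% and 13.4%. Within 200 kb, shared regions differed from WT by 3.94 in B10 and 1.98 in G7 in mean rank, against 4.99 and 2.82 within 50 kb. Depth is unknown, so a WT peak just under the threshold counts as absent.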
